A study of Mus musculus with 2 samples.

Results

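The miR-130 and miR-301 family was measured by microRNA sequencing of newborn mouse kidney through its 4 genes Mir130a, Mir130b, Mir301 and Mir301b, out of 1973 microRNA genes in the count tables. The members were chosen by gene name, with their levels in these libraries already known, so their levels are given as a description without a test. The samples form 1 group, the kidneys of B6NCrl pups on postnatal day 0, with both kidneys of a pup pooled into 1 library. There are 2 pups, named pup 1 and pup 2, and the labels place both in pregnancy 1 and state that sex was not recorded. The library of pup 1 held 5832192 counts on named genes and that of pup 2 held 3846704. With 1 tissue at 1 age the data allow comparisons between genes within the kidney and between the pups.

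MicroRNAs are short RNAs cut from hairpin precursors, and one arm of the hairpin is usually loaded into an Argonaute protein, where it guides repression of messenger RNAs. Target choice rests mostly on the seed, bases 2 to 8 of the mature strand. The miR-130 and miR-301 family has its shared seed on the 3p arm, and its members are known for repressing Pparg, the regulator of fat cell and vascular gene programmes, among other targets. Mir130a is known from endothelial and blood-forming cells, and Mir301, which makes miR-301a, from an intron of Ska2, a gene of chromosome segregation.

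The mature 3p sequences show what defines the family, so those of the members with an entry in RefSeq (assembly GRCm38.p6) are printed here 5′ to 3′ with the seed in capitals. The table matched all 4 genes by symbol, with 7 mature sequences, and miR-301b-3p is named only.
miR-130a-3p: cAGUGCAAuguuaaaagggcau
miR-130b-3p: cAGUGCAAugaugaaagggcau
miR-301a-3p: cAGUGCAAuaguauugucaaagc

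The miR-130a and miR-130b strands matched at 20 of 22 positions, and counted from the 5′ end of miR-130a-3p they differed by U11A and A13G. By contrast, miR-301a-3p matched miR-130a-3p at 12 of 22 positions, the first 9 of which are the stretch that holds the seed. These 3 strands thus share their 5′ end, and miR-301a-3p differs from the miR-130 strands along most of the rest.

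The arms opposite to these are printed with bases 2 to 8 in capitals because the tables do not say which arm a read came from.
miR-130a-5p: gCUCUUUUcacauugugcuacu
miR-130b-5p: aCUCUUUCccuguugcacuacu
miR-301a-5p: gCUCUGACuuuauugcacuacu
miR-301b-5p: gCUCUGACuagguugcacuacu

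The 5p arms of Mir301 and Mir301b carried the same bases 2 to 8 and matched at 19 of 22 positions, differing by U10A, U11G and A12G, counted from the 5′ end of miR-301a-5p. The 5p arms of Mir130a and Mir130b matched at 15 of 22 positions, fewer than the 16 of 22 that miR-130b-5p shared with either miR-301 arm. Their bases 2 to 8 differed by U8C, counted from the 5′ end of miR-130a-5p. RefSeq also lists miR-6341, miR-6389, miR-130c and miR-721 with the 3p seed of the family. In all, 7 of 1738 mature sequences had these 7 bases at positions 2 to 8. The letters AGUGCAA occurred in 12 of 1005 RefSeq hairpins read on the RNA strand (1.19%), the 4 members among them, 1 time in each.

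On mm10 the members lie at 3 places in the genome. Mir130a (ENSMUSG00000065484.1) covers positions 84741115 to 84741178 of chromosome 2, minus strand. No host gene encloses it on that strand, and the nearest gene upstream on the same strand, Gm19426, ends its span 990 bases away. Mir130b (ENSMUSG00000065572.1) and Mir301b (ENSMUSG00000076288.1) cover positions 17124061 to 17124142 and 17124400 to 17124496 of chromosome 16, minus strand, with 257 bases between them. Mir301b comes first in the direction of transcription. Both sit inside the protein-coding gene 2610318N02Rik, where 3 of its 8 transcripts span each of them and no exon overlaps either. Mir301b lies 671 bases from the annotated start of the host and Mir130b 1025 bases. Mir301 (ENSMUSG00000065589.1) covers positions 87113004 to 87113089 of chromosome 11, plus strand, in an intron of 2 of the 3 Ska2 transcripts.

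The annotated hairpins differed in length. They were 64 bases long for Mir130a, 82 for Mir130b, 86 for Mir301 and 97 for Mir301b, against a median of 79 over 1005 hairpins. These spans include bases outside the mature arms. From outer end to outer end, the 2 arms covered positions 84741116 to 84741176 in Mir130a and 17124071 to 17124130 in Mir130b. In Mir301 they covered 87113017 to 87113076, so these 3 stretches were of nearly equal length. For Mir301b the 3p arm has no entry. The predicted folding energies of the annotated hairpins were -22.1, -30.1, -37.0 and -39.1 kcal/mol, from Mir130a to Mir301b as listed. The median over all hairpins was -32. Per base these came to -0.345 for Mir130a, -0.367 for Mir130b, -0.430 for Mir301 and -0.403 for Mir301b, beside -0.406 for the median. As annotated, the hairpins of Mir130a and Mir130b thus had the weaker predicted folds per base of the 4. How the unequal number of bases outside the arms bears on these energies was not tested. No member shared 22 bases with another of the 2201 GENCODE microRNA hairpins, about the length of a full mature strand. At 16 bases, Mir130a shared a stretch with Mir6389, Mir130b with Mir6368, and Mir301 and Mir301b with each other. How many reads of the members were listed as multimapping was not tested.

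Mir130a, the member without a host gene, was by far the most counted. It had 173794 counts in pup 1 and 112607 in pup 2, which is 29799 and 29274 in counts per 1000000 named-gene counts (CPM), or 29536 ± 372 CPM (SD, n = 2). Its 95% Wilson intervals, which cover counting error only since reads are not independent molecules, ran from 29661 to 29937 CPM in pup 1 and from 29106 to 29443 in pup 2. It stood at rank 11 of the 1973 genes by counts, with multimapping reads left out.

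Mir130b, whose 3p strand is nearly that of Mir130a, had 30730 counts in pup 1 and 19603 in pup 2. These are 5269 and 5096 CPM, with a mean of 5183 ± 122 (SD, n = 2) at rank 29. Mir301, the Ska2 member, had 4544 and 2956 counts, which are 779 and 768.5 CPM, with a mean of 774 ± 7.55 (SD, n = 2) at rank 81. The pups lay close together in both genes, and no range of one member overlapped that of another.

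Mir301b, the neighbour of Mir130b, was the least counted member. It had 297 counts in pup 1 and 176 in pup 2, or 50.9 and 45.8 CPM, with a mean of 48.3 ± 3.66 (SD, n = 2) at rank 187. Its Wilson intervals, 45.45 to 57.05 CPM in pup 1 and 39.5 to 53.0 in pup 2, overlapped each other and lay far above the level that 3 counts give, 0.514 CPM in pup 1 and 0.780 in pup 2. The order Mir130a, Mir130b, Mir301, Mir301b was the same in both pups.

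**Figure D1:**
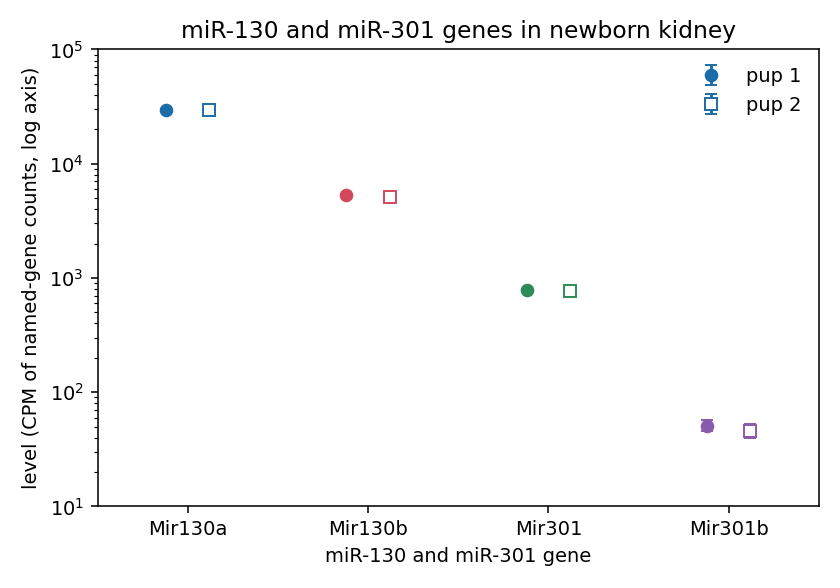
Levels of the 4 miR-130 and miR-301 genes in CPM on a log axis, filled circles for pup 1 and open squares for pup 2, with 95% Wilson intervals as bars that are mostly smaller than the symbols. The means step down from 29536 CPM in Mir130a to 48.3 in Mir301b, and the pups of a gene lie close together beside those steps.

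**Figure D2:**
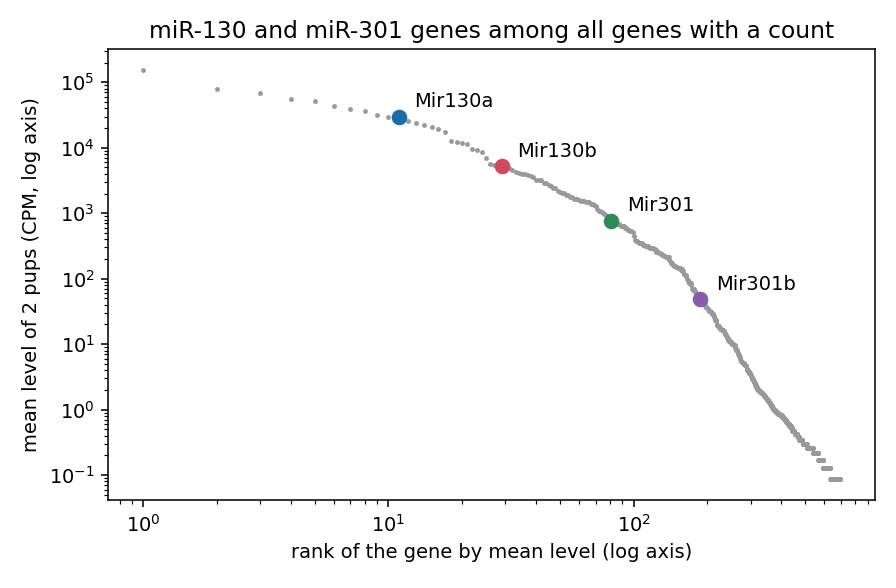
Mean level over 2 pups against rank for every gene with a count, both axes logarithmic, with the miR-130 and miR-301 genes in colour. The members stand at ranks 11, 29, 81 and 187, spread from the head of the curve to its steep part.

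Together the 4 genes held 3.59% of named-gene counts in pup 1 and 3.52% in pup 2, a mean of 3.55% ± 0.0505 (SD, n = 2). Of the family's counts, Mir130a made up 83.0% in pup 1, with a 95% Wilson interval from 82.8% to 83.2%. In pup 2 it made up 83.2%, with an interval from 83.0% to 83.4%. Mir130b supplied 14.6% ± 0.137, Mir301 2.18% ± 0.0097 and Mir301b 0.136% ± 0.0084 (SD, n = 2). Without Mir130a the other members held 0.6005% ± 0.0134 of named-gene counts. The yield of reads per molecule can differ between microRNAs and was not measured here, so these are shares of reads. In a whole organ, fewer cells of a type and less RNA per cell cannot be told apart.

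Ratios between members within a library do not depend on scaling. Mir130a exceeded Mir130b 5.66-fold in pup 1 (exact 95% counting interval 5.59 to 5.72) and 5.74-fold in pup 2 (5.66 to 5.83). Mir130a exceeded Mir301 38.2-fold and 38.1-fold, and Mir301b 585-fold and 640-fold, in pup 1 and pup 2. Mir130b stood at 6.70 ± 0.0927 times Mir301 (SD, n = 2), and Mir301 at 16.1 ± 1.06 times Mir301b. For each of the 6 pairs of members the counting intervals of the pups overlapped.

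Mir130b and Mir301b, 257 bases apart inside the same host gene, had very unequal counts. Mir130b had 103-fold the counts of Mir301b in pup 1 (exact 95% counting interval 92.3 to 116) and 111-fold in pup 2 (96.0 to 130). To set this beside other genes, all 102 pairs of neighbouring microRNA genes on 1 strand within 10 kb and with a mean count of at least 10 were taken, some of which share a gene. The median pair differed 5.97-fold, and 6 of the 102 pairs (5.88%) were more uneven than Mir130b and Mir301b. In 5 of these 6, a gene shares 22 bases with another hairpin, so that its reads can be listed as multimapping rather than counted. Of 71 pairs without such sharing, a choice made after the values were seen, 1 was more uneven (1.41%). It was Mir19a with Mir20a of the miR-17~92 cluster at 263-fold, and the median of the 71 pairs differed 4.56-fold. This choice looks at stretches of 22 bases only, and Mir130b and Mir301b each share 16 bases with another hairpin. Whether shorter reads of these genes were left out as multimapping was not tested. From pup 1 to pup 2 the log2 ratio of Mir130b to Mir301b moved by 0.10, against a median move of 0.17 over the 102 pairs.

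**Figure D3:**
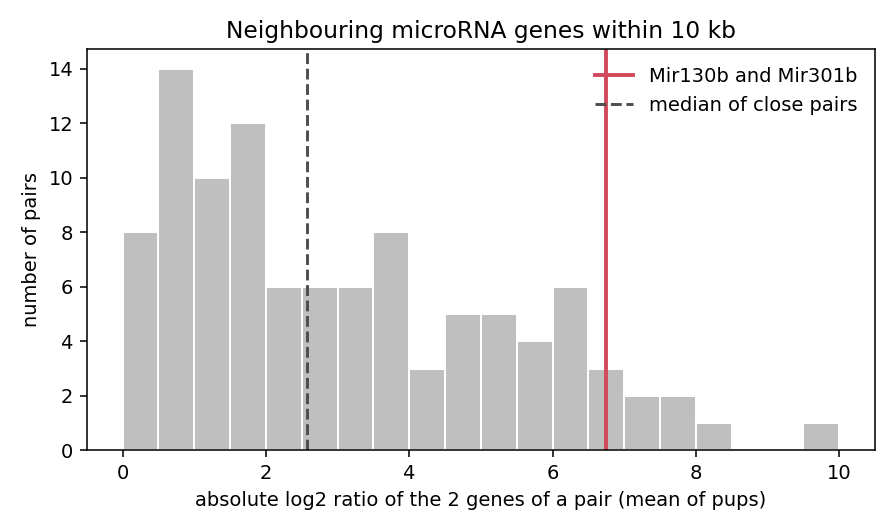
Number of neighbouring microRNA gene pairs within 10 kb by the absolute log2 ratio of their counts, averaged over 2 pups, with the pair Mir130b and Mir301b as a red line and the median pair as a dashed line. The red line lies at 6.74 and the median at 2.58, with 6 of 102 pairs to the right of the red line.

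The genes closest to each member in level were taken as the 2 above and the 2 below it by mean log2(CPM + 1) over 2 pups, members left out. Around Mir130a these were Mir30e (31966 ± 3330 CPM), Mir26b (29711 ± 1226), Mir99a (25516 ± 3323) and Mir23b (24272 ± 65.8). Mir30e lay above Mir130a in both pups and Mir99a and Mir23b below it in both, while Mir26b was higher than Mir130a in pup 1 and lower in pup 2, so the order of that pair is not resolved. Mir130b stood between Mir106b (5337 ± 25.2 CPM), of the miR-17 seed group, and Mirlet7b (5062 ± 2.87), with Mir30d (5510 ± 294) above and Mir744 (4826 ± 440) below, and each of these 4 genes kept its side of Mir130b in both pups.

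Mir301 was below Mir467e (801.5 ± 11.8 CPM) and Mir25 (801 ± 43.4) in both pups, though in pup 2 Mir25 had 2965 counts to the 2956 of Mir301. Mir503 (767 ± 28.7 CPM) and Mir205 (747 ± 81.2) each changed sides with Mir301 between the pups. Around Mir301b, Mir331 (51.7 ± 1.497 CPM) was higher in both pups, while the liver microRNA Mir122 (50.6 ± 9.00), Mir802 (48.3 ± 3.96) and Mir181a-2 (47.6 ± 9.87) changed sides. The order of a member with a gene that changed sides is not resolved by 2 pups.

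Among the other genes with the seed of the family, Mir6341, Mir6389 and Mir130c had 0 counts in both pups, which allows up to 0.514 CPM in pup 1 and 0.780 in pup 2. Mir721 had no row among the counted genes. Counts summed by seed put the family at rank 16 of 1205 seed groups when a gene was entered under the seed of each of its arms. With each gene entered once, under the largest group it could join, a choice made after the values were seen, it stood at rank 9. The groups of Mir99a, Mir99b and Mir100 (3.85% ± 0.421) and of Mir17, Mir20a and Mir93 (4.12% ± 0.280) came directly above it and that of the miR-26 genes (2.98% ± 0.122) directly below. In pup 1 the Mir99a group held 3.55% and the miR-130 and miR-301 family 3.59%, so the order of these groups is not resolved. The miR-26 group was lower in counted reads in both pups. Mir26b (29711 CPM) supplied nearly all of that group, beside 60.6 CPM for Mir26a-2 and 22.45 for Mir26a-1. Whether reads of Mir26a-1 and Mir26a-2 were left out as multimapping was not tested, so this order holds for counted reads only. Mir301b was entered by its family name. Multimapping reads, 30.3% of all reads in pup 1 and 31.0% in pup 2, were left out of these sums. Groups with genes that share 22 bases with another hairpin can lose reads this way, while no member shared such a stretch. The ranks are thus places among counted reads.

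The miR-148 and miR-152 genes have a seed moved by 1 base against that of the family, so that 6 of its 7 bases are shared, as in miR-148a-3p, printed with bases 2 to 8 in capitals.
miR-148a-3p: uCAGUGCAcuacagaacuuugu

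These 3 genes held 0.128% of counts in pup 1 and 0.121% in pup 2, a mean of 0.124% ± 0.0053 (SD, n = 2), beside 3.55% for the miR-130 and miR-301 genes. Mir148a (637 ± 34.2 CPM), Mir148b (386 ± 19.0) and Mir152 (222 ± 0.267) all lay below Mir301 and above Mir301b in both pups. The summed share of the miR-130 and miR-301 genes was the higher in both pups. The smallest two-sided p that an exact sign test over 2 pups can give is 0.5, so the difference was not tested and the values stand side by side.

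The pups were next compared gene by gene. The log2 ratio of pup 2 over pup 1, after scaling with the trimmed mean of M-values (TMM), was -0.05 for Mir130a (95% counting interval -0.06 to -0.04), -0.07 for Mir130b (-0.10 to -0.04), -0.04 for Mir301 (-0.11 to 0.03) and -0.17 for Mir301b (-0.45 to 0.10). An exact binomial test of both counts called Mir130a (adjusted p = 2.09e-16) and Mir130b (adjusted p = 9.12e-07) lower in pup 2, with Benjamini-Hochberg adjustment over 324 genes and a threshold of 0.05. Mir301 (adjusted p = 0.414) and Mir301b (adjusted p = 0.385) were not called. That is 2 of 4 members called, where 33.6% of all tested genes were, and over only 4 genes these shares cannot be told apart.

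The test sets 1 library against another and covers counting error only. With the spread between the pups as a dispersion, edgeR's exact test called 1 of the 324 genes, which was no member, and 14 had an unadjusted p under 0.05. The adjusted p of each member was then 1. The dispersion of edgeR's test came from the same 2 libraries that it compared, so few calls could arise. No conclusion about the pups is drawn from that test. All 4 members had a ratio below 0, but so did the median tested gene, at -0.04, and the median over the members was -0.06. The absolute log2 ratio was larger than that of Mir130a in 80.9% of tested genes, than that of Mir130b in 72.5%, than that of Mir301 in 83.3% and than that of Mir301b in 43.5%.

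**Figure D4:**
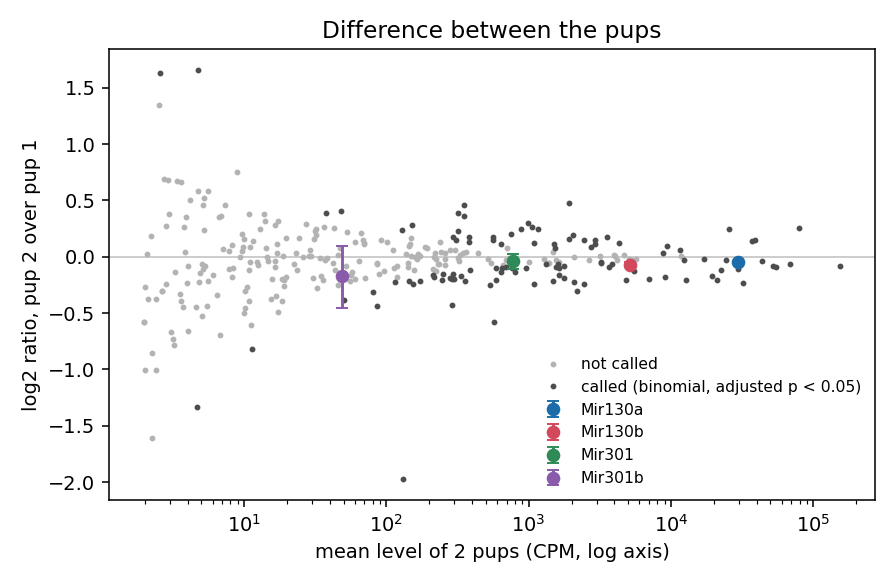
Log2 ratio of pup 2 over pup 1 against mean level in CPM (log axis) for the 324 tested genes, dark points for those called by the exact binomial test, with the miR-130 and miR-301 genes in colour and their 95% counting intervals as bars. The members lie between -0.17 and -0.04, inside the cloud of genes of like level.

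The libraries carried counts of the microRNAs listed for kidney. All 7 kidney genes listed were above 3 counts in both pups, and together they held 25.1% and 24.0% of counts. Nearly all of this came from Mir10a (mean 154437 CPM), Mir10b (68835) and Mir30a (21077). The others were far lower, with 563 CPM for Mir192, 378.5 for Mir204, 296 for Mir194-2 and 3.70 for Mir194-1. Mir126a of endothelium held 7.20% and 8.72%, the 6 genes of smooth muscle and stroma 4.03% and 4.46%, and the 5 epithelial genes 3.15% and 3.17%. The 3 erythroid genes held 0.0241% in pup 1 and 0.0099% in pup 2, and the 3 counted leukocyte genes 0.0611% and 0.0561%. The erythroid sum followed Mir451a, at 208 CPM in pup 1 and 53.5 in pup 2, while Mir144 had 32.2 and 42.9 CPM and Mir486 0.686 and 2.34. The share of Mir126a was higher and the erythroid sum lower in pup 2, where all 4 members had a ratio slightly below 0, and the part of either in the members' values was not tested. Of 3 striated muscle genes, Mir206 had 4.78 ± 0.512 CPM, and Mir1a-1 and Mir133a-1 were at 0 counts. Of 3 neural genes with a row, Mir9-3 had 1.68 ± 0.196 CPM, Mir9-2 did not exceed 3 counts in both pups, and Mir124a-1 was at 0 counts. Multimapping reads stayed out of these counts, so a count of 0 does not show that a mature strand was absent. Whether such reads lowered the muscle and neural genes was not tested.

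Reads on the strand opposite to the members came to 1 in pup 1 and 2 in pup 2 at Mir130a and to 0 at Mir130b, Mir301 and Mir301b, so counts on either strand and counts on the strand of the gene were almost the same for the family.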

How the data were processed

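Small RNA libraries of total RNA from the kidneys of 2 newborn pups were analysed. The authors deposited whole-number read counts per microRNA gene, not normalized, in 3 unnamed columns, made from reads aligned to mm10 and counted over annotation M4, per the file headers and notes. For the aligner and trimming, settings are not given in the sources used. The 3 columns and their rows for unassigned reads sum to 1 library total, and the column read as the strand of the gene was used. Rows that name no gene (multimapping 30.3% and 31.0%, unmapped 8.52% and 8.69%, no gene 2.91% and 2.92% of 10014956 and 6700198 reads) stayed out of totals and tests. The arms of a hairpin are not separated.

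Identifiers were matched without version to GENCODE M21 on the same assembly (1894 of 1973 genes). Members and lists were chosen with earlier results of these data known. CPM used the total of named genes. The pups were compared over genes whose mean count was 10 or more by an exact two-sided binomial test (scipy 1.17.1) with TMM sizes from edgeR 4.0.16, a prior count of 0.5 in log2 ratios and Benjamini-Hochberg adjustment. The test was tested on simulated data. DESeq2 1.42.0 size factors, library totals, no filter, either strand and an edgeR exact test with the common dispersion of both pups were alternatives. Each side is 1 library, so p-values compare 2 libraries and not conditions. Genes named by rule were the members, genes of the same seed, the miR-148 and miR-152 genes and, for each member, the 2 nearest genes above and below in level, besides the listed cell type markers. Mir10a in the totals, Mir19a with Mir20a, Mir6389 and Mir6368 as hairpins with a shared stretch, and the leading genes of neighbouring seed groups were named after their values were seen. Hairpins were folded with RNAfold 2.7.2. A shared stretch was sought among annotated hairpins only, as an exact match of 22 bases and also of 16 bases.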

Additional observations from a re-analysis of the deposited data

How the results depend on the processing

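The order of the members and the ratios between them do not depend on the total, and reads from either strand left the 6 ratios as they were. Levels in CPM follow the total chosen. With all reads as the total they were 17080 for Mir130a, 2997 for Mir130b, 447.5 for Mir301 and 28.0 for Mir301b, and the family's share was 2.06%. Without Mir10a in the total they were 34933, 6130, 915 and 57.2, and the share was 4.203%. With counts on either strand Mir130a had 28938 and Mir301 758 CPM, and the share was 3.48%, while Mir130b and Mir301b moved by less than their SD. TMM sizes moved no level by more than its SD. Leaving out each pup in turn gave ranges of 29274 to 29799 CPM for Mir130a, 5096 to 5269 for Mir130b, 768.5 to 779 for Mir301 and 45.8 to 50.9 for Mir301b, and 3.52% to 3.59% for the share. Among close pairs, the share more uneven than Mir130b and Mir301b was 5.88%, 8.33% within 1 kb, 4.05% at a mean count of at least 100, and 1.41% over the 71 pairs without hairpins that share 22 bases, where the cause of the lower share was not tested. The seed group stood at rank 16, or 9 with each gene entered once, among counted reads with multimapping reads left out. The members called between the pups were 2 under every scaling, filter and strand tried and 0 with the edgeR exact test, where the log2 ratios of Mir130a and Mir130b were -0.047 and -0.069 with an adjusted p of 1. The edgeR test took its dispersion from the same libraries that it compared, so its lack of calls decides nothing. Depth limits Mir301b, at 297 and 176 counts, most. No paired analysis was possible because the samples form 1 group.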
